A study of Mus musculus with 12 samples.

Results

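The comparison described here is the step of wild-type mouse limb development between 11.5 and 12.5 days post coitum (dpc), read on 4 of the 12 arrays of the series. The members are the 2 arrays labelled WT at 12.5 dpc and the 2 labelled WT at 11.5 dpc, and each change is the mean log2 value at 12.5 dpc minus the mean at 11.5 dpc. The series asked how gene expression differs while the limb acquires its dorsal side, with and without Lmx1b, a LIM homeobox gene that specifies the dorsal limb mesenchyme. WT embryos (Lmx1b +/+) and knockout embryos (KO, Lmx1b -/-) were of the C57BL/6 strain and were taken at 11.5, 12.5 and 13.5 dpc, with 2 arrays for each stage and genotype. Every array read RNA pooled from forelimbs and hindlimbs, and the 2 pools of a group came from different embryos per the series text. Limb buds were dissected with the girdle at 11.5 and 12.5 dpc, so both WT groups compared here hold the same anatomical part, whereas the 13.5 dpc samples were the distal limb (zeugopod and autopod). Pool size differed between sources: 3 limbs at 12.5 dpc and 6 at 11.5 dpc in the series text, but 6 for every sample in the extraction protocol. Each stage carried its own array series in the labels, with both genotypes inside it, so developmental stage and scan series cannot be told apart in any change between stages.

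During these stages the mouse limb passes from an outgrowing bud to a limb with condensed skeletal elements. The apical ectodermal ridge, a strip of epithelium at the tip of the bud, secretes FGFs that keep the mesenchyme growing, Shh from the posterior margin patterns the digits, and WNT and BMP signals set the dorsoventral axis and the spaces between digits. Myoblasts that migrated from the somites fuse and switch on contractile genes, while the limb mesenchyme forms cartilage, joints and tendons, and Hox and Meis factors mark position along the limb. In pooled tissue, fewer cells of a type and less RNA per cell cannot be told apart, which holds for every change below.

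The 4 markers of muscle, cartilage, girdle and ridge all passed the test of the stage change. The comparison was chosen with earlier results of these data known, so their passing is a description and not independent support. Mylpf, the fast skeletal regulatory myosin light chain, read 10.86 and 11.20 log2 units on the WT 12.5 dpc arrays, against 8.94 and 9.12 on the WT 11.5 dpc arrays. Matn1, the cartilage matrix protein matrilin-1, read 8.60 and 8.52 at 12.5 dpc, against 6.17 and 7.18 at 11.5 dpc. Both genes were higher on each 12.5 dpc array than on either 11.5 dpc array. Pax1, a paired-box factor of the developing shoulder girdle, read 6.00 and 6.60 at 12.5 dpc, against 8.90 and 9.05 at 11.5 dpc. Fgf8, the FGF made along the whole apical ridge, read 6.35 and 5.75 at 12.5 dpc, against 7.99 and 8.38 at 11.5 dpc. These stage groups did not overlap either, with the 12.5 dpc arrays low. The changes were 2.00 ± 0.43 log2 units (SE) for Mylpf, 1.88 ± 0.53 for Matn1, -2.67 ± 0.38 for Pax1 and -2.13 ± 0.45 for Fgf8, with limma adjusted p of 0.0114, 0.0326, 0.00222 and 0.0102. The Pax1 call held without any single one of the 12 arrays, with an adjusted p of at most 0.0264. The Mylpf, Matn1 and Fgf8 calls each ended when 1 WT 11.5 dpc or 12.5 dpc array was left out, with an adjusted p of at most 0.192. Lmx1b itself read 9.29 and 9.55 in WT at 12.5 dpc, against 9.28 and 9.64 at 11.5 dpc, a change of -0.04 ± 0.35 (adjusted p = 0.95). The tissue was labelled as fore- and hindlimb pools, and the hindlimb factor Pitx1 read 5.80 and 6.06 at 12.5 dpc, against 6.10 and 6.28 at 11.5 dpc, near or under the median of all values on the arrays, 6.28.

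Several facts of the arrays bear on these values. The root mean square difference over all genes was 0.237 between both WT 12.5 dpc arrays, 0.155 between both WT 11.5 dpc arrays, and 0.366 to 0.394 between arrays of the different stages. KO 12.5 dpc replicate 2 stood apart from KO 12.5 dpc replicate 1 by 0.356, and KO 13.5 dpc replicate 2 lay closer to WT 11.5 dpc replicate 1, at 0.218, than to KO 13.5 dpc replicate 1, at 0.267. Both KO arrays enter the spread that all groups share, so counts without them are given beside the main ones. Such a fit leaves 1 array in each of these KO groups, which then adds nothing to the spread. For either KO group, the WT counts were the same whichever of its arrays was left out. Larger WT counts in that fit therefore follow from the changed spread and say nothing about which array is at fault. Control probe sets moved with the stage too. The 3 probe sets for 18S ribosomal RNA averaged 8.78 and 8.28 on the WT 12.5 dpc arrays, against 11.39 and 11.29 on the WT 11.5 dpc arrays, and 24 probe sets for spiked poly-A controls averaged 8.78 and 8.35, against 7.17 and 7.54. Actb and Gapdh control sets differed by -0.01 and -0.12. The part of these shifts in the gene changes was not tested. Xist, the RNA of the inactive X chromosome, read 6.72 and 11.53 in WT at 12.5 dpc, against 11.69 and 11.45 at 11.5 dpc, so WT 12.5 dpc replicate 1 was low on it while the other WT arrays were high. The Y-linked Kdm5d read 8.70 and 7.52 at 12.5 dpc, against 7.85 and 7.81 at 11.5 dpc. With 2 arrays a group, precision is low, and the changes of probe sets near background are compressed.

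Of 18193 genes measured, 3603 (19.8%) were called, which here means an adjusted p under 0.05: 1213 (6.67%) were higher and 2390 (13.1%) lower at 12.5 than at 11.5 dpc. The 2 arrays of one stage both lay above the 2 of the other for 11905 genes (65.4%), of which 5079 (27.9%) were higher and 6826 (37.5%) lower at 12.5 dpc, so a lack of overlap alone says little here. Without both KO arrays that stood apart, 2229 genes (12.3%) were called higher and 3721 (20.5%) lower. List counts from that fit are to be read against these shares, which exceed those of the main fit. Few calls of the main fit were large: 77 called genes (0.423%) were at least 2-fold higher and 125 (0.687%) at least 2-fold lower. The median change of all genes was -0.03. Calls were also read in fits that left out 1 array. Without 1 of the 4 WT arrays compared, its stage keeps 1 array and the SE widens, so a call can end while the change hardly moves. Neb, for example, changed by 1.70 to 1.87 over these fits, though its call did not hold in all. A lost call alone, here and for each list, therefore does not show that a change rests on the array left out. Of the 3603 calls, 810 remained without WT 11.5 dpc replicate 2, and 1377 remained without WT 11.5 dpc replicate 1. Leaving out WT 12.5 dpc replicate 1 kept 1729 of them, and leaving out WT 12.5 dpc replicate 2 kept 1906. In each of the 12 fits that left out 1 array, 708 calls held, and no called gene changed sign in any of them. For the 1972 called genes with more than 1 probe set, 2530 of 3784 further probe sets changed in the same direction, and so did 1640 of the 2202 whose level was above the median of all values. The plot of change against level shows the marked genes among all others, with Xist as a large difference that did not pass the test.

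**Figure D1:**
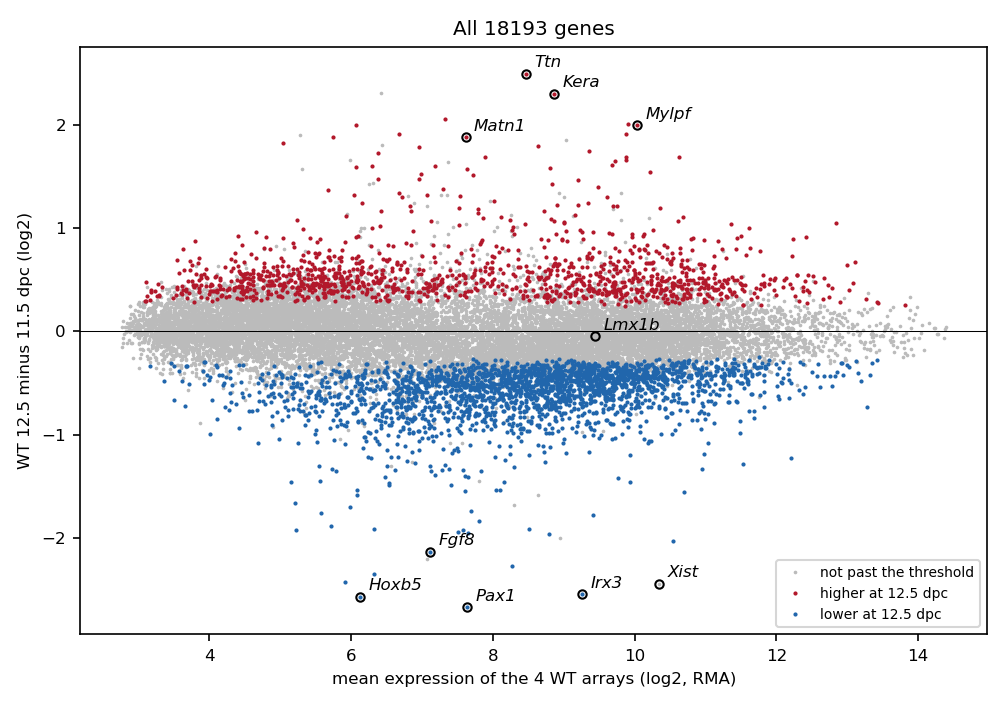
Change in WT limbs from 11.5 to 12.5 dpc (log2, vertical axis) against the mean of the 4 WT arrays (log2, horizontal axis) for 18193 genes, 1 point per gene. Red and blue points passed the test as higher (1213) and lower (2390) at 12.5 dpc, and 10 genes named in the text are circled.

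Contractile genes of skeletal muscle made up much of the upper end of the changes. Of 40 measured genes of the sarcomere and muscle membrane, 15 were called higher, against 6.67% of all genes, and 1 was called lower. Their median change was 1.03, against -0.03 over all genes, and 37 of 40 had a positive change. Leaving out both KO arrays that stood apart gave 34 called higher and 1 lower. Ttn, the giant spring protein of the sarcomere, read 9.56 and 9.87 at 12.5 dpc, against 7.23 and 7.20 at 11.5 dpc. Myh3, the embryonic myosin heavy chain, read 10.83 and 11.00 at 12.5 dpc, against 8.89 and 8.91 at 11.5 dpc. Acta1, skeletal alpha-actin, read 10.69 and 10.97 at 12.5 dpc, against 8.72 and 9.11 at 11.5 dpc. For each of these genes both 12.5 dpc arrays lay well above both 11.5 dpc arrays. Ttn rose by 2.50 ± 0.42 (adjusted p = 0.00393), Myh3 by 2.01 ± 0.44 (adjusted p = 0.0118) and Acta1 by 1.91 ± 0.51 (adjusted p = 0.0267). Of 6 probe sets for Ttn, the 2 with the largest changes gave 2.50 and 2.45, and the dimmest ones gave between -0.02 and 0.26.

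Several thin-filament genes of the list rose, while Tnni2, Tnnt1 and Tpm2 did not pass the test. All 4 probe sets of Tpm2 were higher, by 0.14 to 1.30, and 2 of them were called when all probe sets were tested. The troponin C genes Tnnc1, of slow fibres, and Tnnc2, of fast fibres, rose by 1.69 ± 0.40 and 1.75 ± 0.46, and the troponin T gene Tnnt2, a cardiac isoform that embryonic skeletal muscle also uses, rose by 1.80 ± 0.41. Neb, the thin-filament ruler nebulin, read 7.77 and 7.94 at 12.5 dpc, against 6.15 and 5.99 at 11.5 dpc, a rise of 1.79 ± 0.45. Smpx, a small protein of striated muscle, rose by 1.73 ± 0.50, and the fast light chain Myl1 and the slow troponin I gene Tnni1 rose by 1.69 ± 0.47 and 1.65 ± 0.46. Actc1, the cardiac actin of embryonic muscle, read 12.64 and 12.73 at 12.5 dpc, against values already high at 11.5 dpc, 11.75 and 11.84, and rose by 0.89 ± 0.24. The perinatal myosin Myh8 read 7.17 and 7.98 at 12.5 dpc, against 4.93 and 5.59 at 11.5 dpc. Its difference of 2.31 ± 0.84 was among the widest of the list but did not pass the test (adjusted p = 0.0795). Ckm, the creatine kinase of mature muscle, went the other way by -0.41 ± 0.13 (adjusted p = 0.0487) with values between 5.58 and 6.25, under the median of all values. Of the 16 called genes of this list, the Ttn call alone held without any single array, and the adjusted p of the others reached at most 0.279, in each case with the direction kept.

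Of 14 myogenic regulators, the factors that commit cells to muscle, 2 were called higher and 1 lower (21.4% called, near the 19.8% of all genes), and their median change was -0.14. Without both KO arrays that stood apart, 6 were called higher and 2 lower. Myod1, the determination factor, read 9.95 and 10.06 at 12.5 dpc, against 10.16 and 10.11 at 11.5 dpc, and Myf5, which acts beside it, read 6.96 and 7.35, against 7.37 and 7.25. Myog, the factor of myoblast differentiation, read 10.74 and 10.89 at 12.5 dpc, against 10.23 and 10.20 at 11.5 dpc, a difference of 0.60 ± 0.29 that did not pass the test (adjusted p = 0.18). Myod1 was slightly lower on both 12.5 dpc arrays, Myf5 overlapped between the stages and Myog was higher on both. Lbx1, the homeobox factor of migrating muscle precursors, fell by 0.84 on the log2 scale (SE 0.14, adjusted p = 0.00431), and this call held without any single array. Mef2a, a partner of the myogenic factors, rose by 0.59 ± 0.13 and Myf6 by 0.43 ± 0.11. Mymk, the fusion protein myomaker, read 8.34 and 8.68 at 12.5 dpc, against 7.47 and 7.60 at 11.5 dpc, and missed the threshold (0.97 ± 0.34, adjusted p = 0.0704).

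Promoter sequence is shown for 3 of the muscle genes because they rose together. RefSeq windows (GRCm38.p6) of 250 bases before to 50 after the start were found for 13 of the 15 called higher muscle genes, 15 windows in all. The palindromic E-box CAGCTG, one form of the site that myogenic bHLH factors are known to bind, stood in 6 of the 15 windows (40%), namely those of Mylpf, Myl1, Acta1 and Tnnt2 and both of Tnni1, against 16.3% of 32851 windows of all genes. The looser E-box CANNTG, which includes it, stood in 14 of 15 (93.3%), against 72.3%, and TATAAA in 5 of 15 (33.3%), against 13.6%. Both strands were searched. A match is a description of these letters and not a binding site shown to be used. In the windows below, CAGCTG is in capitals. They lie at chr7:127211358-127211657 on the plus strand for Mylpf, chr8:123894726-123895025 on the minus strand for Acta1 and chr11:67078050-67078349 on the plus strand for Myh3, whose window holds no CAGCTG.
Mylpf: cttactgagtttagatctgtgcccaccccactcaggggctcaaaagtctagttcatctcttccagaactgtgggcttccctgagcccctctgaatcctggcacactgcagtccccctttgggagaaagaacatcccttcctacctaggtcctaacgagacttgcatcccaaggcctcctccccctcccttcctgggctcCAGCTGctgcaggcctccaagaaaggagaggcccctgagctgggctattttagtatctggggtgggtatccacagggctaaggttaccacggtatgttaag
Acta1: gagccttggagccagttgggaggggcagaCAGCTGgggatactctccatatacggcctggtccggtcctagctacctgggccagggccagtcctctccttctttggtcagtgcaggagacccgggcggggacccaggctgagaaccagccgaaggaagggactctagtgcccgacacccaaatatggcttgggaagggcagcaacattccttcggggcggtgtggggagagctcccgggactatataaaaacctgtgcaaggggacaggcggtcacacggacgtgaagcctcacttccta
Myh3: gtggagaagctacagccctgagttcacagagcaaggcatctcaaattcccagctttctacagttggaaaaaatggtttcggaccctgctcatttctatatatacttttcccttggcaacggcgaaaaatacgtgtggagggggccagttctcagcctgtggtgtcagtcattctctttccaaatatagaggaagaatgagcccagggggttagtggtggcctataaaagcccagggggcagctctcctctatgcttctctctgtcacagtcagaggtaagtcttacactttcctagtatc

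Cartilage genes were higher at 12.5 dpc in the main. Of 27 measured cartilage factors and matrix genes, 15 were called higher (55.6%, against 6.67% of all genes) and none lower. A positive change was found in 26, and the median was 0.81. When both KO arrays that stood apart were left out, 26 were called higher and 1 lower. Acan, the aggrecan core protein, read 8.60 and 8.87 at 12.5 dpc, against 6.81 and 7.29 at 11.5 dpc. Col2a1, the chain of type II collagen, read 12.87 and 12.90 at 12.5 dpc, against 11.95 and 11.99 at 11.5 dpc. Cytl1, a secreted protein of chondrogenic cells, read 8.16 and 8.56 at 12.5 dpc, against 6.25 and 6.35 at 11.5 dpc. In each case the stages were separated by more than the gap between the 2 arrays of a stage. Cytl1 rose by 2.06 ± 0.44 (adjusted p = 0.0107), Acan by 1.69 ± 0.38 (adjusted p = 0.0135) and Col2a1 by 0.91 ± 0.20 (adjusted p = 0.0122).

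Other matrix genes that rose were Matn4, a second matrilin, by 1.61 ± 0.45, Epyc, the proteoglycan epiphycan, by 1.60 ± 0.31, Col11a1 by 1.19 ± 0.29 and Hapln1, the link protein that ties aggrecan to hyaluronan, by 1.11 ± 0.29. Fgfr3, the FGF receptor of chondrocytes, read 9.36 and 9.47 at 12.5 dpc, against 8.55 and 8.50 at 11.5 dpc, and rose by 0.89 ± 0.12 (adjusted p = 0.00199). The second probe set of Fgfr3 changed by 0.15, and the mean of both was not called. Wwp2, a ubiquitin ligase gene that SOX9 is known to activate, rose by 0.81 ± 0.14. All 6 probe sets of Wwp2 were higher, by 0.20 to 0.81, and 1 of them was called when all probe sets were tested. Among the SOX factors of cartilage, Sox5 rose by 0.66 ± 0.15, whereas Sox9, the master factor, read 10.81 and 10.82 at 12.5 dpc, against 10.30 and 10.39 at 11.5 dpc, and narrowly missed the threshold (0.47 ± 0.15, adjusted p = 0.0502). Sox6 differed by 0.44 ± 0.21 (adjusted p = 0.162). All 4 probe sets of Sox6 were higher, by 0.32 to 0.83, and 2 of them were called when all probe sets were tested. Of the 15 calls, those of Fgfr3 and Wwp2 held without any single array, and the adjusted p of the others reached at most 0.192.

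In the list for growth plate and onset of bone, none of 17 genes was called higher at 12.5 dpc and 2 were called lower (11.8%, near the 13.1% of all genes), with a median of 0.01, and without both KO arrays that stood apart 1 was called higher and 3 lower. Ihh, the hedgehog ligand of prehypertrophic chondrocytes, read 6.69 and 6.40 at 12.5 dpc, against 6.09 and 6.64 at 11.5 dpc. Sp7, the osteoblast factor osterix, read 6.55 and 6.52 at 12.5 dpc, against 6.39 and 6.66 at 11.5 dpc, and Col10a1, the collagen of hypertrophic cartilage, read 5.76 and 5.50, against 5.36 and 5.27. The stage groups overlapped for Ihh and Sp7, and Col10a1 stayed under the median of all values on all 4 arrays. The 2 genes called lower were Dlx3, a homeobox factor that the ridge and epidermis also express, by -0.93 ± 0.13, and Sost, a secreted WNT inhibitor, by -1.47 ± 0.38. The second of 2 Sost probe sets changed by -0.02. The Sost call ended when either WT 11.5 dpc array or WT 12.5 dpc replicate 2 was left out. Its change ran from -1.82 to -1.12 over the fits without 1 array.

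Genes of the joint interzone, the flat cells that mark a future joint, split. Of 17 measured, 2 were called higher and 2 lower (23.5% called, near the 19.8% of all genes), and without both KO arrays that stood apart 4 and 2. Gdf5, the growth factor that marks the interzone, read 10.13 and 10.47 at 12.5 dpc, against 8.96 and 9.21 at 11.5 dpc, and rose by 1.22 ± 0.34 (adjusted p = 0.0325). Erg, an ETS factor of joint cartilage and of endothelium, read 9.13 and 9.12 at 12.5 dpc, against 8.13 and 8.32 at 11.5 dpc, and rose by 0.90 ± 0.20. Both genes were clear of overlap. Wnt4 fell by 0.53 on the log2 scale (SE 0.15) and Cd44, the hyaluronan receptor, by 0.60 (SE 0.14). None of these 4 calls held without every single array, with an adjusted p of at most 0.178.

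Among 20 tendon and ligament genes, 3 were called higher and 1 lower, with 18 positive changes and a median of 0.58, and without both KO arrays that stood apart 15 were called higher and 1 lower. In the main fit 20% of this list were called, near the 19.8% of all genes, with 15% higher, against 6.67%, and 5% lower, against 13.1%. Kera, the small leucine-rich proteoglycan keratocan, read 10.01 and 10.03 at 12.5 dpc, against 7.65 and 7.77 at 11.5 dpc. Dcn, decorin of the same family, read 9.68 and 10.18 at 12.5 dpc, against 8.25 and 8.67 at 11.5 dpc, and Tnc, the matrix protein tenascin-C, read 9.86 and 9.78, against 8.48 and 8.70. All 3 were higher on both 12.5 dpc arrays. Kera rose by 2.30 ± 0.33 (adjusted p = 0.00213), Dcn by 1.47 ± 0.38 (adjusted p = 0.024) and Tnc by 1.23 ± 0.34 (adjusted p = 0.0294), and the Kera call held without any single array while the other calls of the list reached an adjusted p of at most 0.156. Scx, the factor that marks tendon progenitors, read 7.61 and 7.84 at 12.5 dpc, against 7.52 and 7.37 at 11.5 dpc (0.28 ± 0.20, adjusted p = 0.348), and Mkx, a later tendon factor, differed by 0.76 ± 0.30 (adjusted p = 0.103). In the overlapping list of 23 connective tissue matrix genes, 20 had a positive change and the median was 0.39. Of the 23, 4 were called higher (17.4%, against 6.67% of all genes). They were Kera, Dcn, Omd (osteomodulin, 0.49 ± 0.14) and Pdgfra, the PDGF receptor of mesenchyme (0.48 ± 0.12). Without both KO arrays that stood apart, 15 of the 23 were called higher. Aspn, asporin, read 6.12 and 6.35 at 12.5 dpc, against 4.12 and 4.54 at 11.5 dpc, and its difference of 1.91 ± 0.66 did not pass the test (adjusted p = 0.0668).

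**Figure D2:**
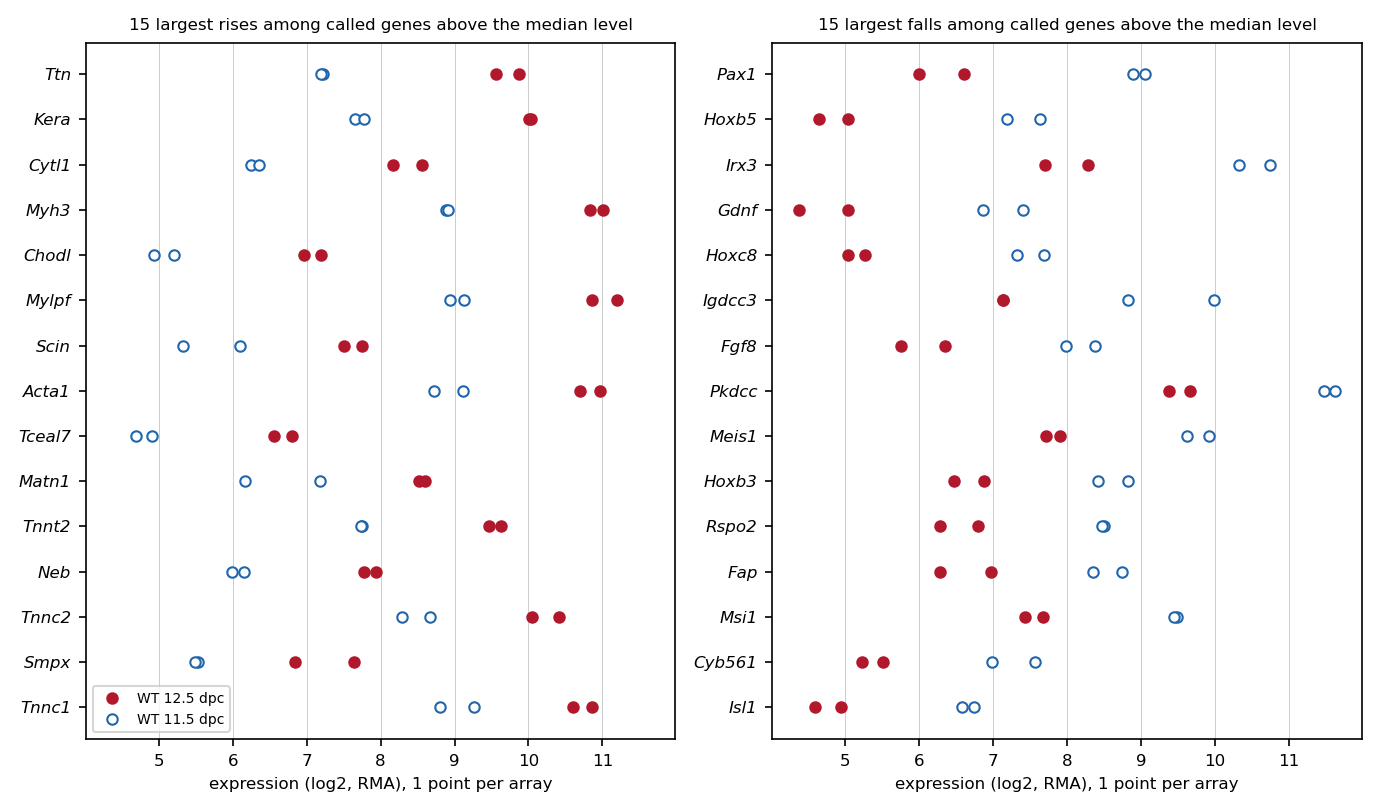
Expression (log2, horizontal axes) on each WT array for the 15 genes with the largest rises (left) and the 15 with the largest falls (right) among called genes whose stages did not overlap and whose higher stage mean was above the median of all values, 1 point per array with filled red for 12.5 dpc and open blue for 11.5 dpc. On the left every red point lies right of both blue points of its gene, and on the right every red point lies left of them, as the choice of genes fixes.

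Genes of the apical ridge and its FGF pathway were lower more often than higher. Of 24 measured genes, 11 were called lower, against 13.1% of all genes, and 1 higher, with a median of -0.47. With those KO arrays left out, 15 were called lower and 1 higher. Beside Fgf8, the ridge ligand Fgf9 fell by 0.61 on the log2 scale (SE 0.16) and Fgf17 by 0.44 (SE 0.11). Rspo2, an R-spondin that the ridge secretes to enhance WNT signalling, read 6.29 and 6.79 at 12.5 dpc, against 8.50 and 8.47 at 11.5 dpc. Sp6, a zinc-finger factor of the ridge, read 6.73 and 6.88 at 12.5 dpc, against 7.64 and 7.42 at 11.5 dpc. Both genes were lower on each 12.5 dpc array than on either 11.5 dpc array, with changes of -1.95 ± 0.25 (adjusted p = 0.0016) and -0.72 ± 0.13 (adjusted p = 0.00481). Of the list's genes that FGF signalling is known to switch on, Spry4 and Etv4 fell, while Spry1, Spry2, Dusp6, Etv5 and Il17rd did not pass the test. All 3 probe sets of Etv5 were lower, and 1 of them was called when all probe sets were tested. Spry4, a feedback inhibitor, read 8.19 and 8.20 at 12.5 dpc, against 9.09 and 9.11 at 11.5 dpc, and Etv4, an ETS factor, read 7.96 and 8.10, against 9.04 and 8.95. Their changes were -0.91 ± 0.11 (limma adjusted p = 0.00125) and -0.97 ± 0.15 (limma adjusted p = 0.00274). The second probe set of Etv4 changed by 0.06, and the mean of both was not called. Dusp6, a phosphatase of the same feedback, read 11.28 and 11.05 at 12.5 dpc, against 11.58 and 11.43 at 11.5 dpc, and did not pass the test (-0.34 ± 0.24, adjusted p = 0.351). Fgf10, the mesenchymal ligand that maintains the ridge, read 6.14 and 6.16, against 6.39 and 6.55 (adjusted p = 0.292). Fgfr2 was the 1 member that rose, with 10.90 and 10.93 at 12.5 dpc, against 10.10 and 10.20 at 11.5 dpc (0.76 ± 0.16). The calls of Etv4, Rspo2, Sp6 and Spry4 held without any single array, and the others reached an adjusted p of at most 0.187.

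Markers of surface ectoderm were also lower more often than higher. Of 27 measured ectoderm and epidermis genes, 12 were called lower (44.4%, against 13.1% of all genes) and 2 higher (7.41%, near 6.67%). Their median change was -0.52. Their mean level on each array was 7.59 and 8.01 log2 units at 12.5 dpc, against 8.29 and 8.17 at 11.5 dpc. The fit that left out those KO arrays called 13 lower and 2 higher. Cldn6, a tight-junction claudin, read 6.97 and 7.60 at 12.5 dpc, against 8.74 and 8.89 at 11.5 dpc, and Krt8, a keratin of simple epithelium, read 6.55 and 6.66, against 7.94 and 7.95. They fell by 1.53 (SE 0.20) and 1.34 (SE 0.25). Epcam, an epithelial adhesion protein, fell by 0.71 (SE 0.12), Krt19 by 1.15 (SE 0.19), Cdh1, E-cadherin, by 0.93 (SE 0.23) and Trp63, the p63 factor of stratified epithelium, by 0.56 (SE 0.14), although 1 of its 4 probe sets read higher at 12.5 dpc (0.76, not called). The basal keratins did not: Krt14 read 9.30 and 10.14 at 12.5 dpc, against 9.88 and 9.53 at 11.5 dpc, and Krt5 read 8.80 and 9.71, against 9.71 and 9.38. For both the stages overlapped, and WT 12.5 dpc replicate 1 was the lowest array. The members called higher were Fst, the activin antagonist follistatin, which mesenchyme and muscle also make (1.43 ± 0.24), and Lor, loricrin (0.84 ± 0.20). The calls of Cldn6, Epcam, Esrp1, Fst, Krt19 and Wnt6 held without any single array, and the others reached an adjusted p of at most 0.299. The part of the ectoderm's share of RNA in the ridge changes was not tested.

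Hedgehog genes moved both ways, with 27.8% of the list called higher, against 6.67% of all genes, and 33.3% lower, against 13.1%. Of 18 measured hedgehog and anteroposterior genes, 5 were called higher and 6 lower, with a median of 0.19, and without both KO arrays that stood apart 8 and 6. Shh, the ligand of the posterior margin, read 6.95 and 6.94 at 12.5 dpc, against 8.21 and 8.50 at 11.5 dpc, and its transcriptional target Gli1 read 7.57 and 7.51, against 8.33 and 8.33. Both fell without overlap, by 1.41 (SE 0.28, adjusted p = 0.00837) and 0.79 (SE 0.11, adjusted p = 0.00181). Ptch1, the receptor and also a hedgehog target, rose, with 11.50 and 11.32 at 12.5 dpc, against 10.90 and 10.81 at 11.5 dpc (0.56 ± 0.10, adjusted p = 0.0061). Hhip, the ligand-binding inhibitor, likewise a target, read 6.87 and 7.00 at 12.5 dpc, against 5.94 and 6.27 at 11.5 dpc (0.84 ± 0.24, adjusted p = 0.0347). So among known targets of the pathway, Gli1 fell while Hhip and the brightest of 3 Ptch1 probe sets rose. The other Ptch1 sets changed by 0.09 and -0.19, and the mean of its sets was not called. Smo, the signal transducer, fell by 0.39 (SE 0.08), and Gas1 and Gli2, a co-receptor and a transcription factor, rose by 0.45 ± 0.12 and 0.41 ± 0.12. Tbx2, a T-box factor of the limb margins, read 8.15 and 8.12 at 12.5 dpc, against 9.24 and 9.36 at 11.5 dpc, and fell by 1.17 (SE 0.14, adjusted p = 0.00135), with its relative Tbx3 lower by 0.49 (SE 0.12). Grem1, the BMP antagonist that links Shh to the ridge, read 7.28 and 7.10, against 7.33 and 7.82 (-0.39 ± 0.26, adjusted p = 0.324). Only the Gli1 and Tbx2 calls of this list held without any single array, and the others reached an adjusted p of at most 0.231.

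WNT genes were lower more often than higher, with 42.9% of the list called lower, against 13.1% of all genes, and 7.14% higher, against 6.67%. Of 28 measured, 12 were called lower and 2 higher, with a median of -0.40, and without both KO arrays that stood apart 15 and 3. Lef1, a transcription factor of the pathway, read 9.18 and 9.17 at 12.5 dpc, against 9.96 and 9.88 at 11.5 dpc, and fell by 0.75 (SE 0.10, adjusted p = 0.00153). Among ligands, Wnt6, Wnt7b, Wnt3 and Wnt4 fell by 0.50 to 0.68, whereas the probe sets of Wnt7a, the dorsal ectodermal signal that induces Lmx1b, disagreed. The brightest of 3 read 7.61 and 7.77 at 12.5 dpc, against 7.23 and 6.96 at 11.5 dpc, and was called higher (0.59 ± 0.13, adjusted p = 0.0137), another was called lower (-0.70), and their mean was not called (0.062). Wnt5a, another ligand of the list, was not called, although all 4 of its probe sets were higher, by 0.30 to 1.37. When all probe sets were tested, 3 of those 4 were called. The feedback targets Axin2 and Nkd1 fell by 0.42 (SE 0.11) and 0.39 (SE 0.12), and Sp5 by 0.55 (SE 0.12). Of the secreted inhibitors, Sfrp1 read 9.18 and 9.16 at 12.5 dpc, against 9.90 and 10.51 at 11.5 dpc, Dkk1 read 7.45 and 7.24, against 7.99 and 8.34, and Dkk2 read 9.38 and 9.19, against 8.81 and 8.58. The first 2 fell, by 1.04 (SE 0.25) and 0.82 (SE 0.21), and Dkk2 rose by 0.59 ± 0.19. Rspo1, an R-spondin like Rspo2, read 5.75 and 6.17 at 12.5 dpc, against 8.21 and 8.13 at 11.5 dpc, but its difference of -2.21 ± 0.74 did not pass the test (adjusted p = 0.061). The calls of Lef1, Rspo2 and Wnt6 held without any single array, and the others reached an adjusted p of at most 0.264.

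For the dorsoventral axis, 3 of 10 measured genes were called higher and 2 lower, with a median of -0.03, and without both KO arrays that stood apart 4 and 2. In the main fit 30% of the dorsoventral list were called higher, against 6.67% of all genes, and 20% lower, against 13.1%. En1, the ventral ectodermal factor that keeps Wnt7a dorsal, read 4.31 and 4.73 at 12.5 dpc, against 5.30 and 4.99 at 11.5 dpc. These values were under the median of all values, and En1 fell by 0.62 (SE 0.16). Among 21 BMP genes, 6 were called higher and 4 lower, with a median of 0.25, and without both KO arrays that stood apart 8 and 4. The ligands diverged. Bmp2 read 9.22 and 9.15 at 12.5 dpc, against 8.63 and 8.43 at 11.5 dpc, whereas Bmp4 read 10.04 and 9.78, against 10.58 and 10.63, and Bmp7 read 9.11 and 8.94, against 9.47 and 9.34. Bmp2 rose by 0.65 ± 0.19, and Bmp4 and Bmp7 fell by 0.69 (SE 0.21) and 0.38 (SE 0.11). The receptor gene Bmpr1a rose by 0.47 ± 0.08 on the brightest of 6 probe sets. When all probe sets were tested, 1 of the 6 was called higher. Another changed by -0.17, and the mean of the sets was not called. The BMP-responsive Msx1 rose by 0.51 ± 0.16, while the inhibitory SMAD genes Smad6 and Smad7 fell by 0.62 (SE 0.09) and 0.47 (SE 0.13). The calls of Bmpr1a, Fst, Rspo2 and Smad6 in these lists held without any single array, and the others reached an adjusted p of at most 0.247.

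Retinoid and interdigit genes included 1 large rise. Of 13 retinoid genes 23.1% were called, near the 19.8% of all genes, and of 15 interdigit and cell death genes 46.7%. Aldh1a2, the enzyme that makes retinoic acid in the tissue between digits and along the proximal limb, read 10.67 and 10.75 at 12.5 dpc, against 8.98 and 9.13 at 11.5 dpc. It rose by 1.66 ± 0.38 (adjusted p = 0.0139), a 3.16-fold change. Stra6, a membrane receptor that takes up retinol, fell by 0.68 (SE 0.12), and Cyp26a1, an enzyme that degrades retinoic acid, read 6.84 and 6.92 at 12.5 dpc, against 7.40 and 7.40 at 11.5 dpc and fell by 0.52 (SE 0.13). Of 13 retinoid genes these 3 were the called ones, with a median of 0.03, none of the 3 calls held without every single array (adjusted p at most 0.106), and without both KO arrays that stood apart 3 were called higher and 4 lower. Of 15 genes of interdigit tissue and cell death, 2 were called higher and 5 lower, with a median of -0.09, and 3 and 7 without those KO arrays. Bak1, a pore-forming death effector, read 7.49 and 7.35 at 12.5 dpc, against 8.88 and 8.88 at 11.5 dpc, and fell by 1.45 (SE 0.10, adjusted p = 0.000268), a call that held without any single array.

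Many HoxB and HoxC genes, which mark position along the body axis and the proximal limb, were lower at 12.5 dpc. Of 15 measured HoxB and HoxC genes, 8 were called lower (53.3%, against 13.1% of all genes) and none higher, with a median of -1.31. Without both KO arrays that stood apart, 11 were called lower. Hoxb5 read 4.65 and 5.03 at 12.5 dpc, against 7.18 and 7.64 at 11.5 dpc, Hoxb3 read 6.47 and 6.87, against 8.42 and 8.83, and Hoxc8 read 5.27 and 5.04, against 7.32 and 7.69. For all 3 the 12.5 dpc arrays were low, by -2.57 ± 0.40 (adjusted p = 0.00296), -1.95 ± 0.18 (adjusted p = 0.000631) and -2.35 ± 0.38 (adjusted p = 0.00362). Hoxb2, Hoxb4 and Hoxb6 fell by 1.28 to 1.76 and Hoxc6 by 1.31 (SE 0.36). Hoxc4 differed by -1.68 ± 0.66, and Hoxc5 read 7.91 and 7.98 at 12.5 dpc, against 9.75 and 10.14 at 11.5 dpc. Neither passed the test (adjusted p = 0.0998 for Hoxc4 and 0.157 for Hoxc5). All 3 probe sets of Hoxc5 were lower, and 1 of them was called when all probe sets were tested. Hoxb9 and Hoxc9, nearer the 5-prime end, read 5.53 and 6.10 at 12.5 dpc, against 5.61 and 5.65 at 11.5 dpc, and 6.98 and 7.32, against 7.06 and 7.01, both with overlap. Hoxc13, at the 5-prime end, fell by 0.93 (SE 0.21). The calls of Hoxb3, Hoxb5, Hoxb6 and Hoxc8 held without any single array, and the other calls of this list reached an adjusted p of at most 0.142.

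In the HoxA and HoxD clusters, which pattern the limb segments, 4 of 18 genes were called lower and none higher, with a median of -0.32, and without both KO arrays that stood apart 8 were lower and 2 higher. In the main fit 22.2% of this list were called lower, against 13.1% of all genes. All 4 of these genes lie toward the 3-prime end: Hoxa2 fell by 1.70 (SE 0.29), Hoxa4 by 1.93 (SE 0.33), Hoxa3 by 0.77 (SE 0.15) and Hoxd1 by 0.67 (SE 0.14). The calls of Hoxa2 and Hoxa4 held without any single array, and those of Hoxa3 and Hoxd1 reached an adjusted p of at most 0.096. None of the genes of the distal limb was called. Hoxd13 read 12.63 and 12.49 at 12.5 dpc, against at most 12.28 on the 11.5 dpc arrays (0.42 ± 0.17, adjusted p = 0.103), and Hoxa13 read 9.16 and 8.87, against 8.82 and 8.92 (0.15 ± 0.19, adjusted p = 0.626). Hoxd12 differed by 0.58 ± 0.20 (adjusted p = 0.0722), and Hoxd10 and Hoxd11 by -0.02 ± 0.11 and -0.19 ± 0.14. Hoxa11, of the middle segment, read 10.44 and 10.31 at 12.5 dpc, against 10.16 and 10.10 at 11.5 dpc (adjusted p = 0.35). The bar plot by cluster position shows the falls toward the left of the Hoxa and Hoxb panels, Hoxb1 apart, and smaller differences on the right.

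**Figure D3:**
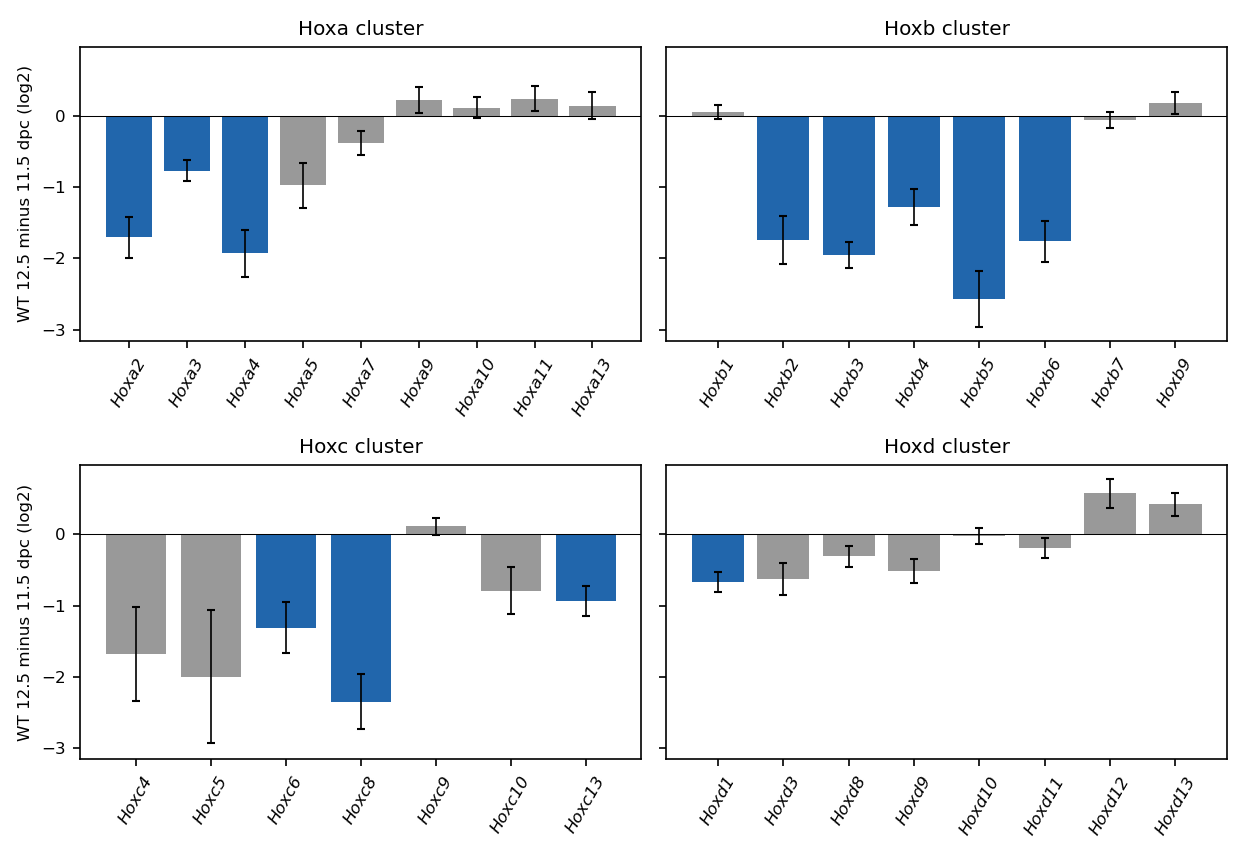
Change in WT limbs from 11.5 to 12.5 dpc (log2, vertical axes) for the measured HOX genes of each cluster, ordered by paralogue number, with bars for the fitted change and whiskers for its SE (2 arrays per stage). Blue bars passed the test as lower at 12.5 dpc and grey bars did not pass. Hoxb5 (-2.57) and Hoxc8 (-2.35) are the longest called bars.

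Among 18 genes of the proximal limb and girdle, 5 were called lower and none higher, with a median of -0.26, and without both KO arrays that stood apart 10 were lower and 4 higher. In the main fit 27.8% of this list were called lower, against 13.1% of all genes. Irx3, an Iroquois homeobox factor of the proximal and anterior bud, read 7.70 and 8.28 at 12.5 dpc, against 10.32 and 10.75 at 11.5 dpc. Meis1 and Meis2, the homeobox factors that mark the proximal segment, read 7.71 and 7.91, against 9.62 and 9.92, and 8.20 and 8.86, against 10.26 and 10.36. All 3 were much lower at 12.5 dpc without overlap, with changes of -2.55 ± 0.35 (adjusted p = 0.00191), -1.96 ± 0.40 (adjusted p = 0.00945) and -1.78 ± 0.37 (adjusted p = 0.00953). Alx4, an anterior mesenchyme factor, fell by 0.54 (SE 0.13). Shox2, a factor of the upper-arm segment, read 11.62 and 11.72 at 12.5 dpc, against 11.79 and 11.85 at 11.5 dpc (-0.15 ± 0.35, adjusted p = 0.807), and Emx2, needed for the scapula, read 8.14 and 8.40, against 8.39 and 8.86 (adjusted p = 0.343). The Irx3 and Pax1 calls held without any single array, and the others reached an adjusted p of at most 0.174. The second probe set of Pax1 changed by -0.13, and the dimmest of 3 sets of Meis1 by 0.28, neither of them called.

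Forelimb and hindlimb identity genes held 1 called rise and 2 called falls among 9 measured, with a median of -0.79, and without both KO arrays that stood apart 1 and 5. In the main fit 33.3% of this list were called, against 19.8% of all genes. Tbx5, the forelimb initiator, read 10.91 and 11.14 at 12.5 dpc, against 10.39 and 10.14 at 11.5 dpc, and rose by 0.76 ± 0.19 (adjusted p = 0.0218). Isl1, a LIM homeodomain factor that starts the hindlimb field and also marks motor neurons, read 4.59 and 4.95 at 12.5 dpc, against 6.58 and 6.74 at 11.5 dpc, and fell by 1.89 (SE 0.31, adjusted p = 0.00355). The hindlimb factor Tbx4 read 7.97 and 7.98, against 7.79 and 7.82 (0.17 ± 0.14, adjusted p = 0.42). Isl1 kept its call without any single array, and Tbx5 and Hoxc6 reached an adjusted p of at most 0.157.

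Of the genes with the largest falls, several stand outside the groups above. Msi1, the RNA-binding protein Musashi-1, read 7.67 and 7.43 at 12.5 dpc, against 9.48 and 9.45 at 11.5 dpc, and had one of the smallest p of all named genes (-1.92 ± 0.12, adjusted p = 0.000268). Igdcc3, a membrane protein of the immunoglobulin family, read 7.13 and 7.13 at 12.5 dpc, against 8.83 and 9.98 at 11.5 dpc (-2.27 ± 0.35). Pkdcc, a secreted tyrosine kinase needed for limb bone growth, read 9.38 and 9.67, against 11.48 and 11.63 (-2.03 ± 0.41). The 11.5 dpc arrays were higher for each, although those of Igdcc3 lay far apart. Gdnf, the neurotrophic ligand of the RET receptor, read 4.37 and 5.03 at 12.5 dpc, against 6.87 and 7.40 at 11.5 dpc (-2.43 ± 0.40). Fap, fibroblast activation protein, fell by 1.92 (SE 0.34), and Cyb561, a cytochrome b of vesicle membranes, by 1.91 (SE 0.22). The sets of the 15 largest falls and 15 largest rises, here and in the plots, hold called genes without overlap between stages whose higher stage mean was above the median of all values. That filter on level left out Robo2 (1.83) and Hoxa4 (-1.93). Of the 15 largest falls, 11 kept their calls without any single array and Fap, Fgf8, Meis1 and Pkdcc did not (adjusted p at most 0.0836). Of the 15 largest rises, Kera and Ttn kept theirs and 13 did not (adjusted p at most 0.192). Among those rises were 3 genes of no list. Chodl, the membrane lectin chondrolectin, read 6.96 and 7.19 at 12.5 dpc, against 4.94 and 5.20 at 11.5 dpc (2.00 ± 0.63). Scin, the actin-severing protein scinderin, read 7.51 and 7.75, against 5.33 and 6.10 (1.92 ± 0.41), and Tceal7 read 6.56 and 6.81, against 4.69 and 4.91 (1.88 ± 0.59). Each was higher on both 12.5 dpc arrays.

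Lists for other cells that the dissected part could hold were read in the same way. No gene of 8 primitive erythroid genes was called, with a median of -0.09, and the embryonic globin gene Hbb-y read 14.05 and 14.07 at 12.5 dpc, against 13.78 and 13.67 at 11.5 dpc (adjusted p = 0.0544). Of 13 definitive erythroid genes, 1 was called lower (7.69%, against 13.1% of all genes), Hba-a2 by -0.88 ± 0.12. Probes for Hba-a2 may also read its near-identical copy. Of 22 macrophage genes, 4 were called lower (18.2%, against 13.1% of all genes), with a median of -0.23: the complement genes C1qc and C1qa by -0.69 ± 0.09 and -0.43 ± 0.09, the lysozyme gene Lyz2 by -0.59 ± 0.12, and Lyve1 by -0.47 ± 0.13. Their receptor gene Csf1r read 8.97 and 8.61 at 12.5 dpc, against 9.00 and 8.98 at 11.5 dpc (adjusted p = 0.362). Of 25 endothelial and pericyte genes, 6 were called lower (24%, against 13.1% of all genes) and 1 higher, with a median of -0.13. Cdh5, VE-cadherin, read 7.71 and 7.68 at 12.5 dpc, against 8.55 and 8.62 at 11.5 dpc, and fell by 0.88 (SE 0.14), whereas Pecam1, another adhesion protein of endothelium, read 8.70 and 8.57, against 8.53 and 8.84 (adjusted p = 0.862). The vessel factor Sox18 fell by 0.56 (SE 0.13), and the ligand Vegfd by 0.83 (SE 0.11). Neuron, Schwann and melanocyte lists held 1 called gene each, Isl1 and Dct (5.26% and 7.14%, against 19.8% of all genes), with medians of -0.02 and -0.09. In the list for heart, liver and gut, which the dissection should leave out, 12.5% of 16 genes were called, against 19.8% of all genes. Nppa was called higher (0.35 ± 0.11) and Sox2 lower (-0.73 ± 0.15). The heart light chain Myl7 and the liver gene Alb read between 4.52 and 5.26 on all 4 WT arrays, under the median of all values. Without both KO arrays that stood apart, more erythroid, macrophage and endothelial genes were called lower than in the main fit, as was the case over all genes.

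**Figure D4:**
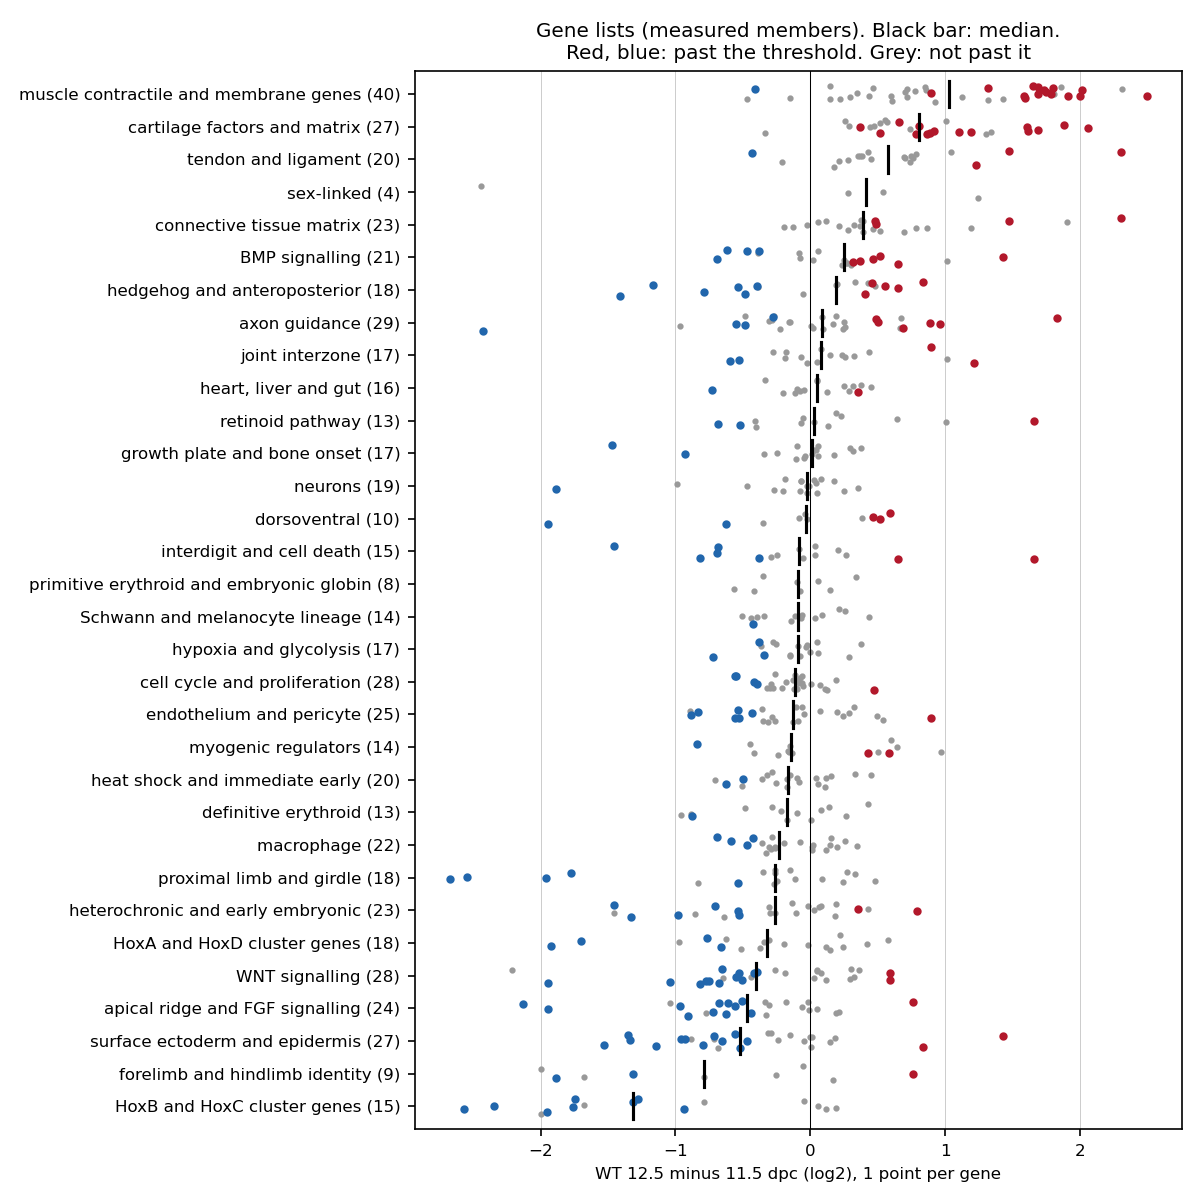
Change in WT limbs from 11.5 to 12.5 dpc (log2, horizontal axis) for each measured gene of 32 lists, ordered by the median (black bar), with red for called higher, blue for called lower and grey for not called. Muscle contractile genes (median 1.03) and cartilage genes (0.81) lie at the top, and HoxB and HoxC cluster genes (-1.31) at the bottom.

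KO limbs taken at the same 2 stages gave a second set of pools, from other embryos but in the same scan series. In them 3054 genes (16.8%) were called between 12.5 and 11.5 dpc, 6.22% of all genes as higher and 10.6% as lower. Of the 3603 genes called in WT, 3442 (95.5%) had the same sign in KO, against 13701 of all 18193 genes (75.3%), and 2012 were called in KO in the same direction. Across all genes the KO and WT changes correlated with r = 0.782, with r = 0.739 without KO 12.5 dpc replicate 2 and with r = 0.635 without KO 12.5 dpc replicate 1. This is a description over genes that share arrays and scan series and are not independent. The muscle list had a median KO change of 0.82, against 1.03 in WT, and the KO median without KO 12.5 dpc replicate 2 was 1.52. The cartilage list had 0.54 in KO, or 0.90 without that array, against 0.81 in WT. The HoxB and HoxC list had -1.26 in KO, or -1.13 without that array, against -1.31 in WT. Acta1 shows the array at issue, with 11.29 and 9.07 in KO at 12.5 dpc and 8.57 and 8.82 in KO at 11.5 dpc, so on this gene replicate 2 read near the 11.5 dpc arrays. Over all genes, that array was closest to WT 12.5 dpc replicate 1 (root mean square difference 0.303) and farther from the 11.5 dpc arrays (0.352 to 0.411).

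The difference between the KO and WT changes was tested for every gene, and limma called none (0%) at an adjusted p under 0.05. At that level without adjustment there were 1132 genes. The smallest p belonged to Nfkbiz, an inhibitor-like regulator of NF-kappaB, which read 7.28 and 7.53 in KO at 12.5 dpc and 6.92 and 6.90 in KO at 11.5 dpc. In WT it read 6.62 and 6.66 at 12.5 dpc, against 7.26 and 7.17 at 11.5 dpc. It was higher at 12.5 dpc in KO and lower in WT, and the KO change minus the WT change was 1.07 ± 0.14 (adjusted p = 0.254). The next 4 by p were Clcn2, Gm19605, Bdkrb1 and Nrap, with differences of 0.74, -0.93, -0.68 and -0.70 (adjusted p = 0.686 for each). Kera changed by 0.30 ± 0.33 in KO and by 2.30 ± 0.33 in WT. Its KO arrays read 6.37 and 6.34 at 12.5 dpc and 6.02 and 6.08 at 11.5 dpc, so all 4 lay under the WT arrays of both stages, and the difference of the changes had an SE of 0.46 (adjusted p = 0.686). That difference was called without both KO arrays that stood apart (-1.99 ± 0.15, adjusted p = 0.0191), with the arrays of 11.5 and 12.5 dpc alone, and without either KO 13.5 dpc array. It was the 1 gene called in each of those fits. Without KO 12.5 dpc replicate 1, when replicate 2 alone stands for that group, 38 genes were called.

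**Figure D5:**
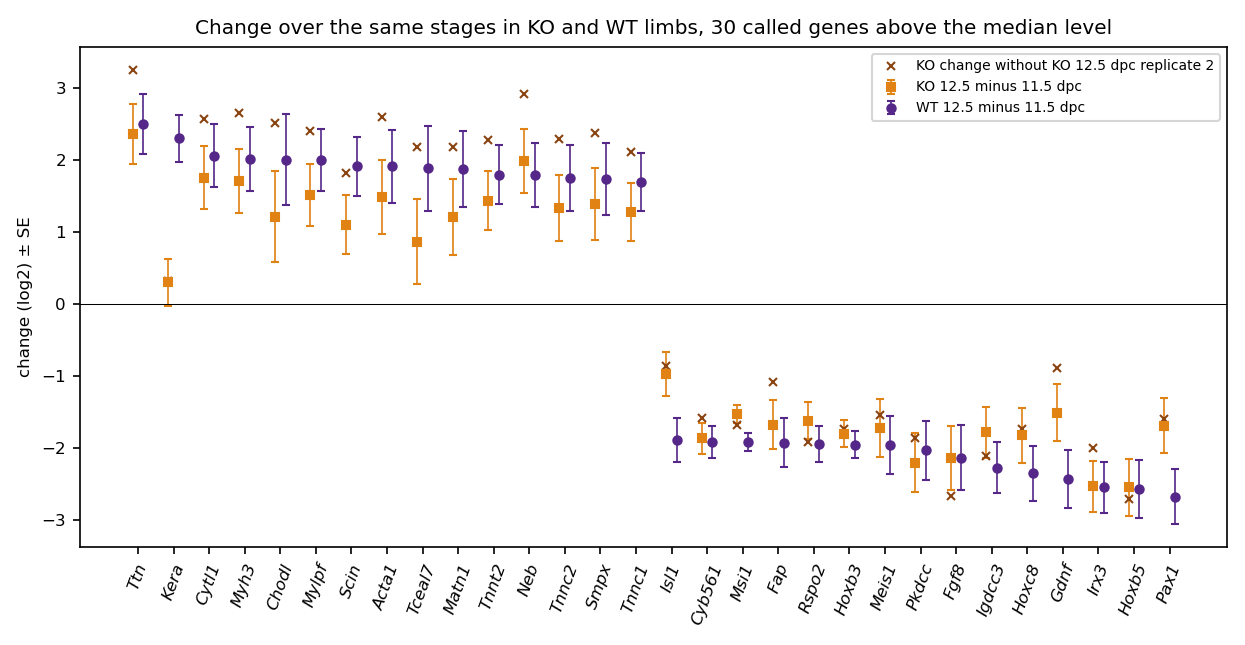
Fitted change from 11.5 to 12.5 dpc (log2 ± SE, vertical axis) in KO limbs (orange squares) and WT limbs (purple circles), 2 arrays per group, for the 30 genes of the plot of largest rises and falls (called, no overlap, higher stage mean above the median of all values), with crosses for the KO change without KO 12.5 dpc replicate 2. Kera is the gene with the widest gap, at 0.30 in KO and 2.30 in WT, and no difference between the changes passed the test.

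The next step in WT, from 12.5 to 13.5 dpc, shares the 12.5 dpc arrays and compares another dissected part, so its values are only set beside those above. There 4598 genes (25.3%) were called, 14.5% of all genes as higher at 13.5 dpc and 10.8% as lower. The muscle list had a median of 1.03 from 11.5 to 12.5 dpc and -1.24 from 12.5 to 13.5 dpc, and the cartilage list had 0.81 in the earlier step and 0.29 in the later one. The medians of the ectoderm list were -0.52 and 0.99, and those of the HoxB and HoxC list -1.31 and -0.28, the earlier step first. Mylpf changed by 2.00 in the earlier step and -1.93 in the later one, Cytl1 by 2.06 and 1.46, and Kera by 2.30 and -0.02. Msi1, Cyb561 and Bak1 had negative changes of -1.92, -1.91 and -1.45 in the earlier step, and positive ones of 1.33, 2.03 and 1.53 in the later step.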

How the data were processed

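Biotin-labelled RNA was read on 12 Affymetrix mouse genome arrays, 2 for each of 6 groups, per the labels. The log2 values are used as deposited, and per the submitters' processing notes RMA made them. Which RMA version was run is not given here. The sorted values of any 2 arrays differed by at most 0.242, so the arrays shared nearly 1 distribution.

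Of 45101 probe sets, 64 were controls, 34945 named 1 gene, 932 named several and 9160 had no name in the platform annotation used. Symbols of 34741 were matched to RefSeq (GRCm38.p6). For the 9010 genes with several probe sets, the set with the highest mean over all arrays was used. limma 3.58.1 in R 4.3.3 (lmFit, eBayes) was fitted to the 6 group means of all 12 arrays, with 6 residual and 4.22 prior degrees of freedom. Tests were two-sided, and p-values were adjusted over 18193 genes by Benjamini-Hochberg. Errors after ± are standard errors of that fit, with 2 arrays per group. The pools came from different embryos, so p-values measure the spread between pools. On simulated data for this comparison, run on 18193 genes, the fit recovered 86 of 100 genes changed by 1 log2 unit. It recovered 97 of 100 changed by 2 and called 13 unchanged genes. The simulated noise was independent between genes and held no shift between scan series, so recovery on the real arrays was not tested.

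The text names the 4 markers and Lmx1b, up to 15 called genes with the largest change in each direction (no overlap between stages, higher stage mean above the median of all values), up to 6 members with the smallest p of each of 32 lists plus defining members, and up to 5 genes with the smallest p for the KO minus WT difference. Bak1 was named by its list. The lists hold 661 entries, of which 612 were measured, covering 556 genes. The comparison, its members and the lists were chosen with earlier results of these data known. Stage and scan series coincide, so no term for the scan series could be fitted. Scanner files were not used here, so background correction was not varied. Alternatives were a renewed quantile normalization, other probe set rules, a filter on dim genes, an intensity trend, array weights, smaller sets of arrays, a replicate block and leaving out each array.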

Additional observations from a re-analysis of the deposited data

How the results depend on the processing

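Among 146 called genes named here, 25 kept their call under every alternative and 121 lost it under at least one, most often without WT 11.5 dpc replicate 2, which ended 97 calls. In the range of fits without 1 array each, counts ran from 174 to 1761 higher and 640 to 2965 lower in WT, from 462 to 3493 called in KO, from 0 to 38 for the difference, and from 1663 to 5783 for WT 13.5 against 12.5 dpc. The WT 11.5 and 12.5 dpc arrays each cut both WT counts by over 1.5 times. Without both KO arrays that stood apart, 2229 genes were higher, 3721 lower, 1 had a difference and 6940 changed from 12.5 to 13.5 dpc in WT. Testing all probe sets gave 1992 genes higher in WT and 4654 called in KO, and arrays of 11.5 and 12.5 dpc alone gave 1 difference. With the replicate block, 1161 were higher, 2306 lower, 2837 called in KO and 4457 in the later WT step. The labels' numbers did not pair the samples: deviations of same-numbered arrays correlated by 0.036 (WT 12.5 and 11.5 dpc), -0.12 (KO and WT 12.5 dpc) and 0.187 (KO and WT 11.5 dpc). The block ended 6 of the 146 calls. Of 78 called named genes with several probe sets, 25 had at least 1 of the opposite sign, and 1 such set, of Wnt7a (-0.70), was itself called. The largest others were Trp63 0.76, Robo1 -0.46, Ccnd3 0.35, Lor -0.33 and Nkd1 0.28. The probe set with the smallest change had the opposite sign for 17 of the 25: Ttn -0.022, Sox5 -0.023, Igf2r -0.10, Ckm 0.035, Cd44 0.094, Fgf9 0.082, Rspo2 0.029, Sp6 0.026, Etv4 0.060, Tbx3 0.13, Smad7 0.039, Hoxa4 0.044, Hoxa3 0.023, Meis1 0.28, Msi1 0.14, Igdcc3 0.22 and Nfkbiz 0.054. The cause was not tested. Medians near 0 changed sign under some alternatives for 8 of 32 lists, among them myogenic regulators (-0.14, up to 0.17), joint (0.08, down to -0.03) and retinoid genes (0.03, down to -0.09). Values near background limit the reading of dim genes such as En1 and Lin28a.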

Other observations

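Of 23 measured heterochronic and early embryonic genes, 6 were called lower (26.1%, against 13.1% of all genes) and 2 higher (8.7%, against 6.67%), with a median of -0.26. Lin28a, an RNA-binding protein that blocks let-7 maturation, read 4.27 and 4.56 at 12.5 dpc, against 5.59 and 6.16 at 11.5 dpc, and fell by 1.46 on the log2 scale (SE 0.27, limma adjusted p = 0.00589). All 4 of its values lie under the median of all values. Trim71, a ubiquitin ligase and let-7 target, fell by 1.33 (SE 0.31), and Myc, the growth-promoting transcription factor, by 0.71 (SE 0.20). Igf2r, the imprinted receptor that clears IGF2, rose by 0.79 ± 0.17. Sall4, a zinc-finger factor of early limb buds, read 7.27 and 6.88 at 12.5 dpc, against 8.38 and 8.68 at 11.5 dpc, and did not pass the test (-1.45 ± 0.49, adjusted p = 0.0612). None of the 8 calls held without every single array (adjusted p at most 0.234). Leaving out both KO arrays that stood apart gave 10 called lower and 3 higher.

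Of 29 axon guidance genes, 6 were called higher (20.7%, against 6.67% of all genes) and 4 lower (13.8%, near the 13.1% of all genes). Robo2, a receptor for SLIT ligands, had both arrays of 12.5 dpc high, with 5.92 as the lower one, against 4.34 and 3.92 at 11.5 dpc, and rose by 1.83 ± 0.19 (limma adjusted p = 0.000807). Its relative Robo1 rose by 0.69 ± 0.13 on the brightest of 3 probe sets, with -0.46 on another, and the secreted semaphorins Sema3d and Sema3c by 0.89 ± 0.15 and 0.96 ± 0.30. Beside Gdnf, the netrin gene Ntn4 fell by 0.48 (SE 0.09) and the semaphorin receptor gene Plxnd1 by 0.55 (SE 0.14). The Gdnf and Robo2 calls held without any single array, and the other 8 reached an adjusted p of at most 0.233. With those KO arrays left out, 8 were called higher and 9 lower.

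Of 28 measured cell cycle genes, 1 was called higher and 4 lower (17.9% called, near the 19.8% of all genes), with a median of -0.11, and 1 and 9 without those KO arrays. Mki67, the proliferation antigen, read 12.09 and 12.02 at 12.5 dpc, against 11.63 and 11.54 at 11.5 dpc, and rose by 0.47 ± 0.09. The cyclin genes Ccne1 and Ccnd3 fell by 0.55 (SE 0.11) and 0.56 (SE 0.12), with 0.35 on 1 of 3 probe sets of Ccnd3. None of the 5 calls held without every single array (adjusted p at most 0.185). Among 20 heat shock and immediate early genes, 2 were called lower (10%, under the 13.1% of all genes), Hsph1 by -0.50 ± 0.10 and Ier2 by -0.62 ± 0.16. Among 17 genes of hypoxia and glycolysis, 3 were called lower (17.6%, near the 13.1% of all genes). Egln3, a prolyl hydroxylase that oxygen shortage induces, was 1 of them, at -0.72 ± 0.14. These 5 calls each ended without 1 array or another (adjusted p at most 0.272).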
